A study of Homo sapiens with 12 samples.

Results

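The genes described here are 10 Kruppel-like factor genes, namely KLF2, KLF3, KLF4, KLF5, KLF6, KLF9, KLF10, KLF11, KLF13 and KLF15, chosen by their gene name among the 63677 genes of the count table. The rule itself used no measured value, but the members were chosen with earlier results of these data known. RNA was sequenced from 12 samples of Huh7 cells, an established human hepatocarcinoma line, in 4 groups of 3. The groups were untreated cells in medium only, cells given graphene oxide (GO) at 400 µg/mL, cells given GO carrying the ginsenoside Rg3 (GO-Rg3) at 400 µg/mL, and cells given the same carrier also loaded with the anthracycline doxorubicin (GO-Rg3-DOX) at 100 µg/mL. Treated cells were exposed for 6 h. The study asked how GO acts on these cells, whether Rg3 on the carrier alters that response, and how the loaded carrier acts. Because GO-Rg3-DOX was given at a different dose than the carriers without doxorubicin, dose and doxorubicin cannot be told apart in that group. Free doxorubicin was not analysed here. Every group came from this 1 cell line. No label says that the replicates came from separate cultures, so the p-values measure the spread between these samples only, which may be technical.

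Kruppel-like factors are transcription factors that bind GC boxes and CACCC boxes in DNA through zinc fingers at their carboxy-terminal end, and they share this DNA-binding part with the Sp factors. Their amino-terminal parts differ and decide what they recruit: the SIN3 corepressor for KLF9, KLF10, KLF11 and KLF13, the CtBP corepressor for KLF3, and acetyltransferases for several others. In liver they are known for control of glucose, amino acid and lipid metabolism and of growth, and several are immediate responders whose mRNA turns over quickly.

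All 10 members carried 3 zinc fingers in the coding sequence of their reference transcript (GENCODE v44lift37). The coding DNA of the last finger is shown for 6 members to let the shared frame and its variation be seen. The capitals mark the codons of the zinc-binding residues, a pair of cysteines and a pair of histidines.
KLF9: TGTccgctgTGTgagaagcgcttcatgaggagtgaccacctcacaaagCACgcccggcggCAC
KLF13: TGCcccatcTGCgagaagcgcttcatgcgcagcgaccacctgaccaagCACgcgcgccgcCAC
KLF11: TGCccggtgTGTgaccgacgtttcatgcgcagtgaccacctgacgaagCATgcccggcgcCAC
KLF2: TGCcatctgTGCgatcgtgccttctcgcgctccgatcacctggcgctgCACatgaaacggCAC
KLF5: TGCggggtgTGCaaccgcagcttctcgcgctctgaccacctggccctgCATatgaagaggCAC
KLF6: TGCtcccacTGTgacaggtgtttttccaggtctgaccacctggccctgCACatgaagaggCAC
Each run holds 63 bases. Over the 45 pairs of members, identity in this finger ranged from 47.6% to 84.1%, with a median of 60.3%. KLF9 and KLF13 shared 79.4% of these bases, and KLF2 and KLF5 shared 76.2%. The longest exact run that any pair of whole member transcripts shared was 24 bases, found between KLF3 and KLF6 and between KLF6 and KLF10, which bears on how far a read could be counted for the wrong member. The annotated pseudogenes of the family held at most 3 counts in any sample. An antisense gene overlaps exons of KLF3 (ENSG00000231160, between 6 and 21 counts a sample) and another those of KLF11 (ENSG00000271787, 0 counts in each sample). Whether reads were counted by strand is not given in the sources used here, so these members are uncertain to that extent. KLF4 overlaps a further opposite-strand gene, ENSG00000289987, that was not used here.

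Upstream sequence is shown for the member with the largest fall (KLF2), the member that rose after both GO and GO-Rg3-DOX (KLF9), its close relative that fell after GO-Rg3-DOX (KLF13), and the member that fell after both (KLF15). They were chosen for how their levels moved, so their sequence is a description of these 4 alone. These are the 250 bases before the RefSeq gene start, from a table of GRCh38.p14, each matched without a mismatch to a single place in GRCh37, the build of the count files. Capitals mark the GC box, read as GGGCGG on either strand. They also mark the CACCC box and the CCAAT box, each read as the letters of its name on either strand. Motifs can overlap, as a GC box and a CACCC box do in KLF13.
KLF2, chr19:16435387-16435636 on the plus strand: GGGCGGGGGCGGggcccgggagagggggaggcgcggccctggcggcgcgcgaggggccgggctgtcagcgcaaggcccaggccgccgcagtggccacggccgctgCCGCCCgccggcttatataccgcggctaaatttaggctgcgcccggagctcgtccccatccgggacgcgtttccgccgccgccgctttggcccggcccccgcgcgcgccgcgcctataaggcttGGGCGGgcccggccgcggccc
KLF9, chr9:73029574-73029823 on the minus strand: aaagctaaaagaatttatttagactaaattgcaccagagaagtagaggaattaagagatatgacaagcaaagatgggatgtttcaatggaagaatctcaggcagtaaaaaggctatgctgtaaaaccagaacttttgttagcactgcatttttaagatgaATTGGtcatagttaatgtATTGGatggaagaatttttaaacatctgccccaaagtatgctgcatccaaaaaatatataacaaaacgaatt
KLF13, chr15:31618788-31619037 on the plus strand: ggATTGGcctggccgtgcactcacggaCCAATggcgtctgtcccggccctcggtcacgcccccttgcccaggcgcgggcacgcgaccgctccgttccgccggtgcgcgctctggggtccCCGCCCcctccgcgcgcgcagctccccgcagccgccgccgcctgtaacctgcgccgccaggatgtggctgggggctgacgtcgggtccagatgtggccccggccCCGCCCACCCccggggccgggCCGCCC
KLF15, chr3:126076252-126076501 on the minus strand: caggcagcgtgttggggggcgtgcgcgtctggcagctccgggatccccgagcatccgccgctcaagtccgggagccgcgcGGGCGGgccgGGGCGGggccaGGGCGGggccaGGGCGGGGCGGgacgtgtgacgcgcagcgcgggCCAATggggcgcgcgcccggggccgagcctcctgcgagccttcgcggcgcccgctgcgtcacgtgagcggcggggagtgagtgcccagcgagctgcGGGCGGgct
Over the 300-base entries, which add 50 bases past the start, GC content was 80.7% for KLF2, 80.3% for KLF15 and 78.3% for KLF13 but 32.7% for KLF9, against a median of 58.7% over 35116 human entries. The KLF2 and KLF15 entries each held 6 GC boxes and the KLF13 entry 3, while the KLF9 entry held none. KLF5, which also fell after GO-Rg3-DOX, had an entry of 40.7% GC with 0 GC boxes and another of 71.3% with 2. The entries of KLF4, KLF6 and KLF11 lay at 69.0% to 77.3% GC and held 2 to 7 GC boxes. The table held 10 entries for 8 of the members, and 8 of those 10 entries held a GC box, as did 45% of all entries. A CACCC box was in 4 of the 10 and in 59.9% of all, and a CCAAT box was in 5 of the 10 and in 34.6% of all. KLF3 and KLF10 had no entry. A match describes letters in this window and no more.

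At the other end of the transcripts, each member held at least 1 ATTTA, the core of AU-rich elements that mark short-lived mRNA, in its 3′ untranslated region, as did 71.9% of the 13304 tested coding genes with such a region. Its density had a median of 2.32 per kb over the members, from 0.893 per kb for KLF13 to 3.66 per kb for KLF15, and 1.69 per kb over all those genes. The region itself had a median length of 1992 bases over the members and 1276 over all those genes. A longer region has more room for at least 1 match. The longer element TTATTTATT was found in KLF5 and in no other member, at bases 1301 to 1309 of the 1652 bases of its region, and in 9.18% of all those genes. It is shown in capitals within its surroundings.
KLF5: gtttatctTTATTTATTttgtggta

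Depth ranged from 27802871 to 38877420 counts a sample. The hepatocyte-lineage list (ALB, AFP, APOA1, APOB, TTR, SERPINA1, HNF4A) had counts for 7 of 7 genes in each group, with summed levels of 20600 to 20800 CPM, counts scaled per 1000000, in untreated samples, 12600 to 15500 with GO, 15800 to 19100 with GO-Rg3 and 26400 to 31400 with GO-Rg3-DOX. AFP and ALB made up most of this sum in untreated cells, at 12300 and 4140 CPM. HNF4A, the lineage's transcription factor, went against this sum. It averaged 363 CPM in untreated cells, 563 with GO (log2 fold change 0.63, adjusted p = 5.6e-04) and 180 with GO-Rg3-DOX (-1.02, adjusted p = 1.8e-06). With GO, ALB (-0.67) and AFP (-1.07) were lower at an adjusted p below 0.01. The others did not reach it, with APOB (0.37), SERPINA1 (0.34) and APOA1 (0.09) above untreated cells and TTR (-0.36) below. The 6 leukocyte, endothelial and fibroblast genes summed to at most 3.55 CPM, with PECAM1 at 0 in every sample. The cycling-cell gene MKI67 averaged 366 CPM in untreated cells, with means of 553 in the GO group, 445 in GO-Rg3 and 329 in GO-Rg3-DOX. The mitochondrially encoded share of counts was 5.31% to 6.28% in untreated samples, 12.1% to 24.1% with GO, 6.89% to 7.42% with GO-Rg3 and 12.8% to 19.4% with GO-Rg3-DOX. GO replicate 1 stood apart from the other GO samples, with the 24.1% and a chi-square of counts per gene of 144 and 91.9 against them, where they had 12.4 between them. GO-Rg3-DOX replicate 1 stood apart likewise, with the 19.4% and 45.3 and 58.2 against 4.97. Calls of named genes that changed without either are given without it too. The log2 fold change of a gene also ran with the GC content of its transcript over 16622 genes, at a Spearman rho across genes of 0.44 for GO, 0.20 for GO-Rg3, 0.37 for GO-Rg3-DOX and -0.44 for GO-Rg3 against GO. The part of these shifts in the results was not tested beyond the alternatives given. In bulk RNA, fewer cells and less RNA per cell cannot be told apart.

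In untreated cells the members spanned a wide range once scaled by transcript length. KLF5, a factor of proliferating epithelia, was the most abundant at 37.8 ± 1.33 CPM per kb (SD, n = 3). KLF10 and KLF6 followed at 16.6 ± 0.36 and 16.5 ± 0.91 CPM per kb, and their ranges overlapped. KLF13 (11.6 ± 0.22 CPM per kb) and KLF3 (10.1 ± 0.51 CPM per kb) came next without overlap. A gap then separated KLF15, at 1.63 ± 0.093 CPM per kb, from these 5. KLF11 and KLF9 lay just below it and overlapped each other, at 1.36 ± 0.076 and 1.27 ± 0.036 CPM per kb. KLF2 (0.493 ± 0.051) and KLF4 (0.148 ± 0.058 CPM per kb) were the least abundant. In the GO-Rg3-DOX group the lower end of this order was altered. KLF9 (2.68 ± 0.35 CPM per kb) lay above KLF15 and KLF11, and KLF4 (0.316 ± 0.15) lay above KLF2 (0.061 ± 0.049 CPM per kb). In the GO group KLF9 (2.37 ± 0.41 CPM per kb) also lay above KLF15 and, with overlapping ranges, above KLF11. KLF6 lay above KLF10 in the GO group (24.6 against 13.8 CPM per kb) and the GO-Rg3 group (19.6 against 16.7).

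**Figure D1:**
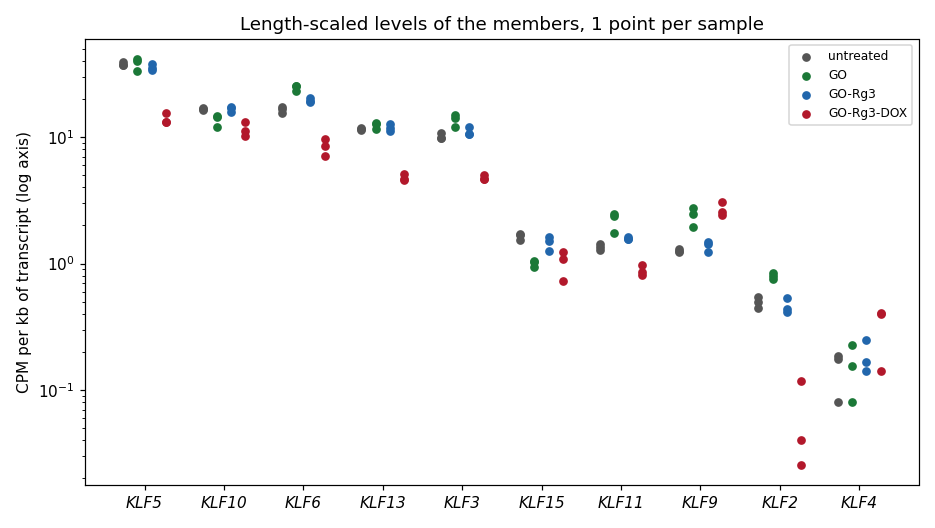
Levels of the 10 members in CPM per kb of reference transcript on a log axis, 1 point per sample, coloured by group and ordered by the untreated mean. KLF5 led in each group, and KLF2 went from 0.493 CPM per kb in untreated cells to 0.061 after GO-Rg3-DOX.

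GO raised 4 of the 10 members and lowered 1. KLF9, KLF11, KLF6 and KLF3 rose, by 1.36-fold to 1.88-fold, and KLF15 fell 1.62-fold. The other 5 did not pass the test, the quasi-likelihood test of edgeR at an adjusted p below 0.01, where p was adjusted by Benjamini-Hochberg over the 17092 genes tested. Of all genes tested, 12.1% were higher and 15.4% lower by the same rule. None of the 10 also passed an absolute log2 fold change of 1, which 3.84% of genes did upward and 2.62% downward. The median log2 fold change was 0.28 over the members and 0.01 over all genes. With scaling by library totals alone, KLF6 (0.46, adjusted p = 0.0269), KLF11 (0.60, adjusted p = 0.0181) and KLF3 (0.33, adjusted p = 0.0784) lost the call.

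KLF9 (chr9:72999520-73029573, GRCh37, minus strand), a repressor induced by glucocorticoid and thyroid hormone, was at 6.59, 6.78 and 6.41 CPM in the untreated samples. In the GO samples it was at 10.03, 12.73 and 14.21 CPM, all above the untreated ones. The log2 fold change was 0.91 (SE 0.14, 95% interval 0.61 to 1.21, adjusted p = 1.8e-04), and it was 1.03 without GO replicate 1. KLF11 (chr2:10182976-10194963, plus strand), a TGF-beta-inducible repressor tied to glucose metabolism, was at 5.79, 5.43 and 5.18 CPM in untreated cells. After GO it was at 6.97, 9.63 and 10.02 CPM, again without overlap, and the lowest of these was GO replicate 1. Its log2 fold change was 0.70 (SE 0.14, adjusted p = 0.0010).

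KLF3 (chr4:38665818-38703138, plus strand), the CtBP-binding repressor, went from 59.8, 54.9 and 54.9 CPM to 67.2, 78.8 and 84.3 CPM. The groups did not overlap and the log2 fold change was 0.44 (SE 0.10, adjusted p = 0.0030), but the call was lost without untreated replicate 2 or 3 or without GO replicate 2 or 3, with log2 fold changes of 0.38 to 0.42 and adjusted p of 0.0101 to 0.0192. Without GO replicate 1 it was 0.53 (adjusted p = 4.1e-04), and with an offset for transcript GC content 0.72. KLF6 (chr10:3818188-3827473, minus strand), a growth-restraining factor that responds to tissue injury, went from 79.6, 76.7 and 71.3 CPM to 105.86, 115.40 and 117.01 CPM. All GO samples lay above all untreated samples, with a log2 fold change of 0.57 (SE 0.11, adjusted p = 7.1e-04). KLF15 (chr3:126061478-126076251, minus strand), a regulator of gluconeogenesis and amino acid catabolism, was at 4.23, 3.87 and 4.31 CPM in untreated cells and at 2.66, 2.59 and 2.41 CPM after GO. The groups were apart, and the log2 fold change was -0.70 (SE 0.17, adjusted p = 0.0045). This call was lost when any 1 of the 3 untreated samples, GO replicate 2 or GO replicate 3 was left out, at log2 fold changes of -0.74 to -0.65 and adjusted p of 0.0105 to 0.0222.

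The members that did not pass the test after GO were of different kinds. KLF2 (chr19:16435637-16439496, plus strand), the flow-responsive factor of endothelium that also keeps lymphocytes quiescent, was at 1.53, 1.25 and 1.39 CPM in untreated cells and at 2.39, 2.11 and 2.24 CPM after GO. Its groups did not overlap, at 39 to 79 counts a sample, and its log2 fold change was 0.68 with a 95% interval of 0.22 to 1.14 and an adjusted p of 0.020. KLF2 passed with DESeq2 (0.70, adjusted p = 0.00963) and in a fit to the 6 samples compared (0.69, adjusted p = 0.00721), and with the GC offset it was at 0.37 and did not pass. KLF10 (chr8:103661012-103667953, minus strand), a TGF-beta early response gene and close relative of KLF11, was lower in each GO sample, at 35.25, 42.21 and 43.04 CPM against 47.6, 48.2 and 49.6 CPM. Its log2 fold change of -0.27 (SE 0.11) had an adjusted p of 0.057. The KLF10 value was -0.18 without GO replicate 1 and -0.08 with the GC offset, and it passed in neither. In all, 7 members had groups that did not overlap, 5 higher and 2 lower, where 28.6% of all genes tested were higher and 29.9% lower without overlap. KLF5 and KLF13 had log2 fold changes of 0.01 (95% interval -0.21 to 0.23) and 0.10 (-0.09 to 0.29), and KLF4 of 0.12 (-0.86 to 1.11).

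**Figure D2:**
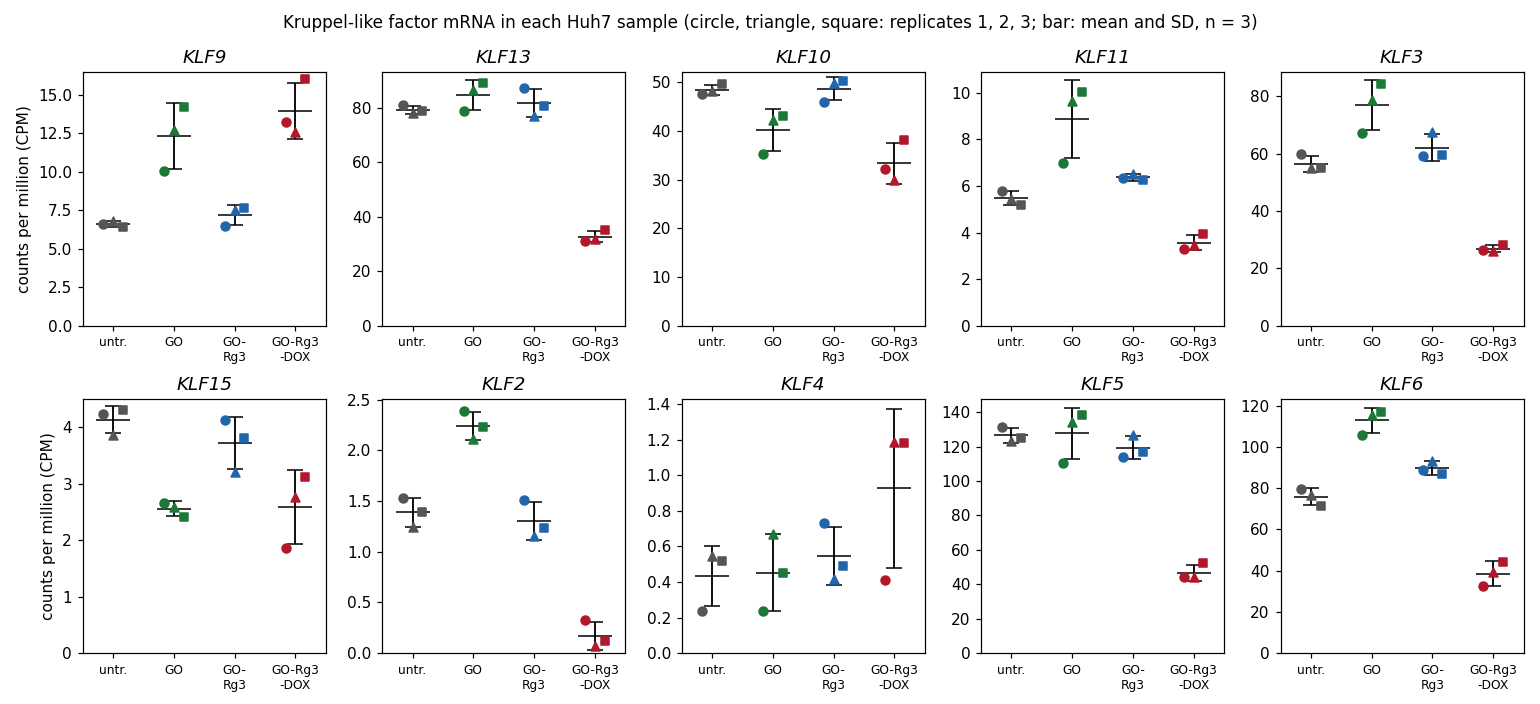
CPM of each member in each of the 12 samples, with circles, triangles and squares for replicates 1, 2 and 3 and bars for the mean and SD (n = 3). After GO-Rg3-DOX, 8 members lay wholly below the untreated samples and KLF9 wholly above them. GO replicate 1 (green circle) was the lowest GO sample for 8 members, the exceptions being KLF2 and KLF15, for which it was the highest.

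GO-Rg3-DOX lowered 8 of the 10 members and raised 1. KLF2 fell the most, 8.21-fold, followed by KLF5, KLF13, KLF3, KLF6, KLF15, KLF11 and KLF10 with falls of 1.45-fold to 2.71-fold, and KLF9 rose 2.12-fold. By the same test 30.5% of all genes were lower and 25.5% higher. The 5 members KLF2, KLF5, KLF13, KLF3 and KLF9 also passed the absolute log2 fold change of 1, as did 18.2% of genes downward and 12.6% upward. The median log2 fold change was -0.83 over the members and -0.06 over all genes, and the 8 members that fell had groups that did not overlap, as had 40.3% of genes in that direction. KLF9 was apart upward, as were 35% of genes. Without GO-Rg3-DOX replicate 1, 6 members fell and 2 rose, since KLF11 and KLF15 lost the call and KLF4 gained one.

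KLF2 was at 0.330, 0.0719 and 0.114 CPM in the GO-Rg3-DOX samples, from 8, 2 and 3 counts, against 58, 39 and 59 counts in the untreated samples. The groups lay far apart, although the exact size of the fall is uncertain at such counts. The fitted log2 fold change was -3.04 (SE 0.35, 95% interval -3.77 to -2.30, adjusted p = 1.7e-06), and it was -3.86 without GO-Rg3-DOX replicate 1. The pooled counts, 13 against 156, gave an 8.43-fold lower level with an exact binomial 95% interval of 4.79-fold to 16.2-fold that covers counting error only. KLF5 (chr13:73629114-73651679, plus strand), the most abundant member, went from 131.6, 123.3 and 124.8 CPM to 44.04, 44.06 and 52.04 CPM. It fell by 1.44 on the log2 scale (SE 0.11, adjusted p = 1.9e-08), with values of -1.85 to -1.16 over the alternatives tried. KLF6 went to 32.3, 39.1 and 44.3 CPM and fell by 0.98 (SE 0.11, adjusted p = 1.5e-06), just short of a log2 change of 1.

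Among the repressors, KLF13 (chr15:31619038-31727868, plus strand), which also regulates chemokine expression in T cells, was at 80.8, 77.9 and 78.6 CPM in untreated cells and at 31.15, 31.84 and 35 CPM after GO-Rg3-DOX. The samples within each group lay close together, and the log2 fold change was -1.28 (SE 0.09, adjusted p = 1.5e-08). KLF3 went to 26.29, 25.99 and 28.21 CPM, with a log2 fold change of -1.08 (SE 0.10, adjusted p = 3.3e-07), or -0.63 with the GC offset. KLF11 went to 3.30, 3.49 and 3.93 CPM, with a log2 fold change of -0.61 (SE 0.15, adjusted p = 0.0021). KLF3, KLF6 and KLF11 were thus lower here and higher after GO, each against the same untreated samples. The KLF11 call was lost without untreated replicate 1 (-0.57, adjusted p = 0.0106) and without GO-Rg3-DOX replicate 1 (-0.56, adjusted p = 0.0102).

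KLF10 was at 32.3, 29.9 and 38.1 CPM after GO-Rg3-DOX, all below the untreated samples, with a log2 fold change of -0.54 (SE 0.11, adjusted p = 4.9e-04). With an offset for transcript GC content the KLF10 value was -0.20 (adjusted p = 0.048) and the KLF11 value -0.41 (adjusted p = 0.0183), so neither passed. With library totals alone they were at -0.95 and -1.03 and passed. KLF15 was at 1.85, 2.77 and 3.13 CPM, below the untreated samples, with a log2 fold change of -0.68 (SE 0.18, adjusted p = 0.0032). Its lowest sample was GO-Rg3-DOX replicate 1, without which the log2 fold change was -0.49 (adjusted p = 0.014), and it also lost the call without untreated replicate 1 or 3, at -0.66 and -0.64 (adjusted p = 0.0116 and 0.0139). With the GC offset and with library totals alone it was at -1.08 and passed.

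KLF9 was the 1 member that rose past the test. It was at 13.23, 12.58 and 16.01 CPM after GO-Rg3-DOX, each sample above all untreated ones, with a log2 fold change of 1.08 (SE 0.14, 95% interval 0.78 to 1.38, adjusted p = 7.9e-06). Over the alternatives tried its value was 0.67 to 1.32 and it passed the test in each. KLF4 (chr9:110247133-110252763, minus strand), a pluripotency and epithelial differentiation factor, was at 0.238, 0.543 and 0.518 CPM in untreated cells and at 0.412, 1.19 and 1.18 CPM after GO-Rg3-DOX. The groups overlapped because GO-Rg3-DOX replicate 1 lay among the untreated samples. The log2 fold change of 1.11 (95% interval 0.20 to 2.03) had an adjusted p of 0.032, and without that replicate it was 1.45 with an adjusted p of 0.00555. These rest on 9 to 33 counts a sample in the 2 groups.

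**Figure D3:**
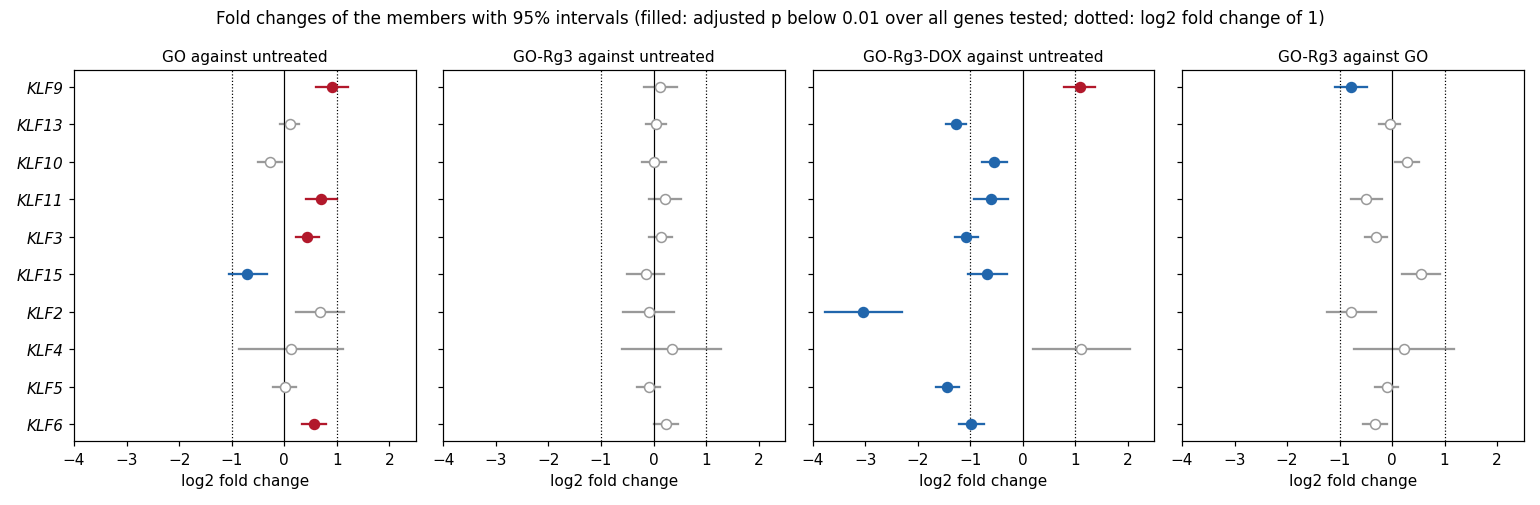
Log2 fold changes of the 10 members in the 4 comparisons with 95% intervals. Filled points had an adjusted p below 0.01, red higher and blue lower, and dotted lines mark a log2 fold change of 1 either way. GO-Rg3 against untreated had no filled point, and KLF9 was filled in the other 3 panels.

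With GO-Rg3 at the same dose as GO, none of the 10 members passed the test against untreated cells, where 0.0585% of all genes were higher and 0.105% lower, and 0.0117% and 0.0468% with the log2 fold change of 1 as well. edgeR's quasi-likelihood test gave the smallest unadjusted p, 0.039, for KLF6, the 1 member under 0.05. At 0.01, DESeq2 passed no member that it gave an adjusted p either, and it gave KLF4 (log2 fold change 0.38) none. KLF6 was at 88.9, 93.3 and 87.0 CPM, above each untreated sample, with a log2 fold change of 0.24 (95% interval 0.01 to 0.47, adjusted p = 0.33). KLF11 was also without overlap, at 6.33, 6.53 and 6.25 CPM, with a log2 fold change of 0.22 (95% interval -0.08 to 0.52). Those 2 were the members apart from the untreated samples, both higher, against 9.12% of all genes higher and 16.6% lower in that way. The intervals of KLF3, KLF5, KLF10 and KLF13 lay within 0.35 of 0 on the log2 scale. Those of KLF9 (-0.18 to 0.44), KLF15 (-0.50 to 0.20), KLF2 (-0.58 to 0.39) and KLF4 (-0.60 to 1.29) were wider. Changes within these intervals remain compatible with the values at this depth and n. The intervals are not limits of detection, as KLF6 did not pass although its interval left out 0.

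GO-Rg3 and GO were also compared directly, and KLF9 was lower in the GO-Rg3 cells. It was at 6.46, 7.49 and 7.67 CPM there, below each GO sample, with a log2 fold change of -0.78 (SE 0.14, 95% interval -1.08 to -0.48, adjusted p = 0.0013), or -0.90 without GO replicate 1. Of all genes, 6.25% were lower and 7.33% higher by the same test. KLF9 was short of an absolute log2 fold change of 1, which 2.07% of genes passed downward and 0.702% upward. With scaling by library totals alone the value was -0.64 (adjusted p = 0.02), and in a fit to the 6 samples compared it was -0.78 (adjusted p = 0.0167), so the call was lost in both. The other 9 members did not pass. KLF2, at 1.51, 1.16 and 1.24 CPM, had the same log2 fold change of -0.78, but with a wider 95% interval, -1.24 to -0.31, and an adjusted p of 0.017. KLF11 (-0.49, adjusted p = 0.018) and KLF3 (-0.31, adjusted p = 0.036) did not pass either with GO replicate 1 in the fit, and without it KLF11 was at -0.63 (adjusted p = 0.00166) and KLF3 at -0.39 (adjusted p = 0.00704), past the threshold. KLF15 was higher in each GO-Rg3 sample, at 4.14, 3.21 and 3.81 CPM, than in each GO sample, with a log2 fold change of 0.55 and an adjusted p of 0.029. KLF6 was lower without overlap, at -0.33 (edgeR adjusted p = 0.033). With the GC offset KLF3 (-0.50), KLF6 (-0.37), KLF11 (-0.49) and KLF15 (0.79) did pass. KLF2 (-0.77) and KLF11 (-0.48) passed with DESeq2. In this comparison 6 members did not overlap, 4 lower and 2 higher, where 18.9% of genes were lower and 20.1% higher without overlap.

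The rest of the family was measured in the same samples. Of the 7 other Kruppel-like factor genes, KLF7, KLF12 and KLF16 were abundant enough to test. After GO-Rg3-DOX, KLF7, known from neuronal development, rose (log2 fold change 0.83, SE 0.11, adjusted p = 1.1e-05), and KLF12, a CtBP-binding repressor, fell (-1.36, SE 0.16, adjusted p = 2.3e-06). KLF7 went from 16.7, 16.9 and 16.1 CPM to 26, 29.65 and 32.83 CPM, without overlap. Neither passed in the other 3 comparisons, nor did KLF16 in any. Of the 9 Sp genes 7 were tested, and after GO-Rg3-DOX 5 fell and 2 rose, where 30.5% of all genes fell and 25.5% rose. SP3, a general GC-box factor, fell the most, from 125.7, 126.2 and 118.6 CPM to 27.5, 29.5 and 33.9 CPM (log2 fold change -2.03, SE 0.15, adjusted p = 2.6e-08). SP1, the founding member, also fell (-0.77, adjusted p = 7.3e-06), as did SP4 (-1.17), SP5 (-1.15) and SP8 (-0.95). SP6, a factor of tooth and skin development, was all but absent before and had 64, 75 and 78 counts after GO-Rg3-DOX, against 4, 0 and 4 in untreated cells. The pooled counts of SP6 gave a ratio of 38.6 with an exact binomial 95% interval of 19.3 to 90.6 for counting error only, and edgeR's adjusted p was 1.4e-08. SP6 reached the count filter only through its GO-Rg3-DOX samples, so its place among the tested genes rests on the values being tested. These figures describe those counts and lend no further support. SP2 rose in both GO (0.62, adjusted p = 0.0026) and GO-Rg3-DOX (0.54, adjusted p = 0.0031). After GO, SP1 rose (0.44, adjusted p = 0.0027) and SP3 fell (-0.54, adjusted p = 0.0086). These GO calls depended on single samples. SP1 lost its call without any 1 of the untreated samples or GO replicate 3 (0.42 to 0.45, adjusted p of 0.0124 to 0.0159), SP2 without untreated replicate 2 or 3 (0.58 and 0.63), and SP3 without any 1 untreated sample, GO replicate 1 or GO replicate 3 (-0.62 to -0.35, adjusted p of 0.0114 to 0.0294). With the GC offset SP3 was at -0.18 after GO (adjusted p = 0.105), and with library totals alone SP1 (0.32), SP2 (0.50) and SP3 (-0.64) all lost the GO call. SP3 also lost it in each of 4 further settings, at -0.53 to -0.51. After GO-Rg3-DOX, SP2 lost its call without untreated replicate 2 or 3 or GO-Rg3-DOX replicate 1 or 3 (0.50 to 0.55), SP5 without GO-Rg3-DOX replicate 1 or 2 (-1.11 and -1.01), and SP8 without untreated replicate 1 or 3 or GO-Rg3-DOX replicate 1 (-0.89 to -0.71). With library totals alone, SP2 was at 0.12 (adjusted p = 0.487) and KLF7 at 0.42 (adjusted p = 0.0234) after GO-Rg3-DOX. With the GC offset KLF12 (-0.85), SP1 (-0.48), SP4 (-0.59), SP5 (-1.86) and SP2 (0.33) still passed there.

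Genes of the proteins that the factors recruit, and of ligases that degrade them, were read from lists. Of 9 corepressor and coactivator genes, 3 rose and 4 fell after GO-Rg3-DOX, with a median log2 fold change of 0.13, where 25.5% of all genes rose and 30.5% fell. The scaffold SIN3A fell most (-1.83, SE 0.09, adjusted p = 3.2e-10), then the acetyltransferase EP300 (-1.24, adjusted p = 3.6e-07). After GO 2 of the 9 rose and 1 fell, where 12.1% of all genes rose and 15.4% fell. The deacetylase HDAC2 fell (-0.56, adjusted p = 5.8e-04), and the acetyltransferase CREBBP was among those that rose (0.39, adjusted p = 0.0062). HDAC2 was higher in GO-Rg3 than in GO cells (0.47, adjusted p = 0.0037). All 6 ubiquitin ligase genes fell after GO-Rg3-DOX, as did 30.5% of all genes, led by SIAH1 (-1.90, SE 0.24, adjusted p = 4.7e-06) and BTRC (-1.31, adjusted p = 9.6e-08), with a median of -0.98 against -0.06 over all genes. After GO the ligase WWP1 fell (-0.47, adjusted p = 0.0045) and SMURF1 rose (0.33, adjusted p = 0.0049), and the other 4 did not pass. The GO calls of CREBBP and SMURF1 were lost without any 1 untreated sample, GO replicate 2 or GO replicate 3 (0.36 to 0.44 and 0.31 to 0.36), and that of WWP1 without any 1 untreated sample, GO replicate 1 or GO replicate 3 (-0.48 to -0.35). With the GC offset HDAC2 (-0.17, adjusted p = 0.125), WWP1 (-0.17, adjusted p = 0.0824) and CREBBP (0.22, adjusted p = 0.0317) lost the GO call. With library totals alone CREBBP (0.27) and SMURF1 (0.21) lost it, as both did without a count filter (0.37 and 0.31) and WWP1 in the fit to 6 samples (-0.46). HDAC2 lost its call against GO without GO replicate 3 or GO-Rg3 replicate 2 or 3 (0.39 to 0.48), in the fit to 6 samples (0.47, adjusted p = 0.037) and with the GC offset (0.17, adjusted p = 0.159).

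The routes known to drive single members were read in the same way. The MEK5-ERK5-MEF2 kinase route, which induces KLF2 and KLF4 in endothelium, had 5 of 7 genes lower after GO-Rg3-DOX, against 30.5% of all genes. Its median log2 fold change was -1.01 against -0.06 over all genes. MEF2C (-1.31, adjusted p = 1.7e-06) and the kinase gene MAPK7, which encodes ERK5 (-1.10, adjusted p = 4.8e-05), fell most. MAPK7 was at 23.0, 19.3 and 23.9 CPM in untreated cells and at 10.8, 9.78 and 10.4 CPM after GO-Rg3-DOX. After GO, MAPK7 rose instead (0.76, SE 0.17, adjusted p = 0.0022), at 40.4, 33.1 and 38.6 CPM, as did MEF2D (0.68, adjusted p = 3.2e-04), while MEF2C fell. MEF2D was lower in GO-Rg3 than in GO cells (-0.53, adjusted p = 0.0039). The MAPK7 rise after GO did not pass without untreated replicate 2 (0.67, adjusted p = 0.015), nor did MEF2D against GO without GO replicate 3 or GO-Rg3 replicate 2 or 3 (-0.54 to -0.43), with library totals alone (-0.37) or in the fit to 6 samples (-0.53, adjusted p = 0.0372). With the GC offset MAPK7 was at 0.44 after GO, MEF2C at -0.72 after GO-Rg3-DOX and MEF2D at -0.33 against GO, and all 3 passed.

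The TGF-beta-SMAD route, which induces KLF10 and KLF11, had 6 of 7 genes lower and 1 higher after GO-Rg3-DOX, at a median of -0.59. Of all genes, 30.5% fell and 25.5% rose there, at a median of -0.06. SMAD7, the inhibitory SMAD, fell from 40.7, 43.5 and 43.5 CPM to 8.61, 9.70 and 8.92 CPM (log2 fold change -2.23, SE 0.12, adjusted p = 9.7e-10), and the shared partner SMAD4 fell by 1.71 (adjusted p = 5.0e-10). The ligand TGFB1 was the 1 that rose. After GO 3 rose and 2 fell, where 12.1% of all genes rose and 15.4% fell. SMAD7 was at 11.40, 13.99 and 15.56 CPM (-1.64, adjusted p = 2.0e-07) and the receptor TGFBR1 was higher (0.87, adjusted p = 1.0e-04). Both were nearer the untreated level with GO-Rg3 than with GO, SMAD7 by 1.10 (adjusted p = 1.8e-05) and TGFBR1 by -0.63 (adjusted p = 0.0022). Of the 6 genes of the glucocorticoid route, which induces KLF9 and KLF15, 3 fell after GO-Rg3-DOX and none rose, at a median of -0.45. The shares over all genes were again 30.5% lower and 25.5% higher. The 3 that fell were the kinase SGK1 (-1.34, adjusted p = 4.6e-07), the receptor NR3C1 (-0.92, adjusted p = 3.7e-05, or -0.44 with the GC offset) and the phosphatase DUSP1 (-0.89, adjusted p = 5.4e-05). The 3 others, FKBP5, TSC22D3 and PER1, had values of 0.03, -0.01 and 0.00. After GO, SGK1 fell (-1.16, adjusted p = 1.8e-05) and the other 5 did not pass, and SGK1 was higher in GO-Rg3 than in GO cells (1.24, adjusted p = 2.2e-05). Without GO replicate 3 or GO-Rg3 replicate 3 the TGFBR1 difference from GO was -0.53 and -0.59 and lost its call, as it did with library totals alone (-0.50) and in the fit to 6 samples (-0.64, adjusted p = 0.0309). None of the genes of these lists or of the family passed in GO-Rg3 against untreated cells.

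Of 10 genes known as targets of Kruppel-like factors, 8 were tested, and THBD and CCL5 were too low. After GO-Rg3-DOX 4 rose and 1 fell, at a median log2 fold change of 0.36, where 25.5% of all genes rose and 30.5% fell at a median of -0.06. NOS3, the endothelial nitric oxide synthase that KLF2 activates, was higher (log2 fold change 1.45, SE 0.41, adjusted p = 0.0061) at 16, 21 and 10 counts against 11, 8 and 5 counts. PDGFA, a growth factor that KLF5 activates, fell (-1.38, adjusted p = 8.7e-07). After GO 2 rose and 1 fell, where 12.1% of all genes rose and 15.4% fell. PRODH, the proline dehydrogenase that KLF15 activates, rose (1.27, SE 0.18, adjusted p = 8.9e-05), from 4.47, 4.06 and 3.39 CPM to 10.8, 7.92 and 10.1 CPM, with KLF15 itself lower. ENG, the TGF-beta co-receptor endoglin that KLF6 activates, rose the most (1.74, SE 0.28, adjusted p = 2.0e-04) at 22, 30 and 37 counts against 9, 8 and 13 counts. ENG reached the count filter only through its GO samples, so its tests against GO share the limit given for SP6. PRODH and ENG were both lower in GO-Rg3 than in GO cells, PRODH by -0.93 (adjusted p = 0.0018) and ENG by -1.87 (adjusted p = 3.5e-04). PRODH also rose after GO-Rg3-DOX (1.17, edgeR adjusted p = 4.4e-05), where KLF15 was lower too. The alternatives for that rise are not given here. NOS3 lost its call without untreated replicate 2 or 3 or GO-Rg3-DOX replicate 1 or 2 (1.12 to 1.56), with library totals alone (1.04, adjusted p = 0.0388) and with the GC offset (0.94, adjusted p = 0.0729). PRODH lost its call against GO without GO-Rg3 replicate 3 (-0.92, adjusted p = 0.0111) and in the fit to 6 samples (-0.94, adjusted p = 0.0196).

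**Figure D4:**
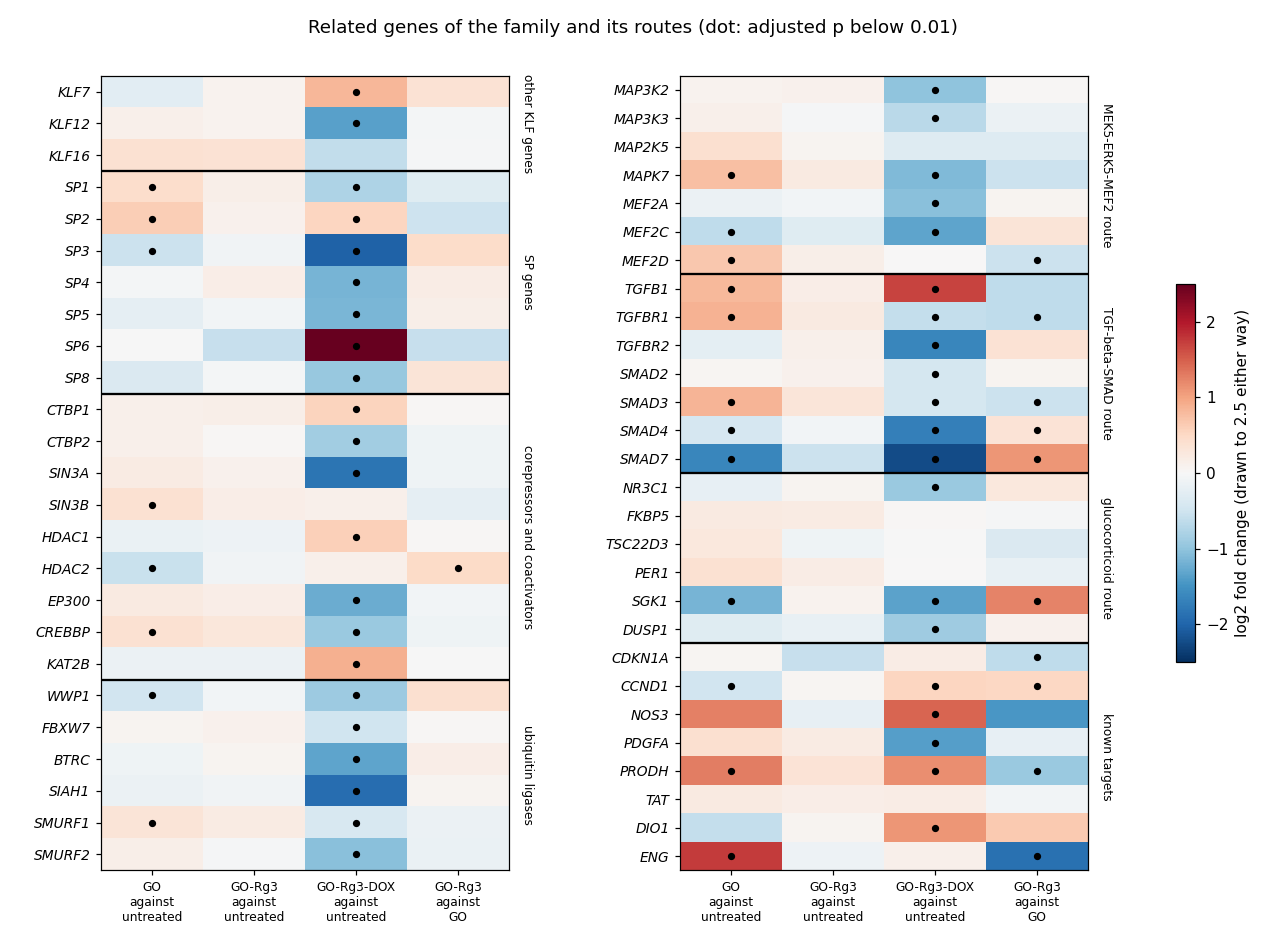
Log2 fold changes of the tested genes of the other family members, recruited proteins, ligases, upstream routes and targets, 1 row per gene and 1 column per comparison, with red higher, blue lower and a dot where adjusted p was below 0.01. Colour is drawn to 2.5 either way, and SP6 lies beyond it at 5.21. The GO-Rg3 against untreated columns hold no dot, and the ligase genes hold 6 of 6 in the GO-Rg3-DOX column.

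KLF2, KLF6 and KLF3 had the widest range of group means, at 3.47, 1.56 and 1.51 on the log2 CPM scale. The genes whose 12-sample profiles lay nearest to theirs were looked up among 13242 genes with a mean of at least 1 CPM, by the Euclidean distance between centred log2 CPM values. Nearest to KLF2 was PDX1, a pancreatic and duodenal homeobox gene, at a distance of 1.06, followed by ZNF746 (1.10) and SNX15 (1.15). PDX1 averaged 6.99 CPM in untreated cells, and the means in the treated groups were 13.3 CPM for GO, 8.31 CPM for GO-Rg3 and 1.62 CPM for GO-Rg3-DOX. The nearest to KLF6 were LMTK2 (0.300), ZNF407 (0.334) and KLF3 (0.364), and those near KLF3 included ZNF407 (0.289) and ATP1B1 (0.290). KLF3 and KLF6 thus resembled each other across the 4 groups, higher after GO and lower after GO-Rg3-DOX.

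**Figure D5:**
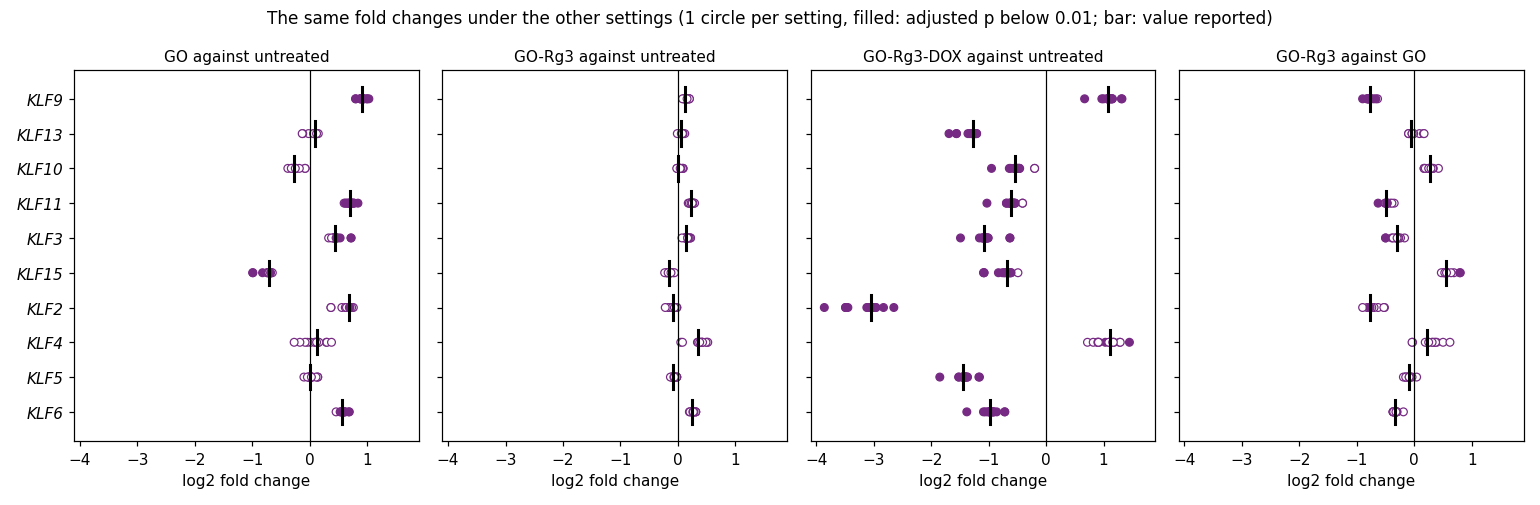
Log2 fold changes of the members under each other way of processing, 1 circle per setting and filled where adjusted p was below 0.01, with a bar at the reported value. KLF9 lay at 0.80 to 1.03 after GO and 0.67 to 1.32 after GO-Rg3-DOX, and KLF2 at -3.86 to -2.65 after GO-Rg3-DOX.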

How the data were processed

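Huh7 RNA from 12 samples was prepared by the authors with a stranded mRNA kit, aligned to GRCh37 with the NGI-RNAseq pipeline and counted per Ensembl gene with featureCounts (versions, annotation release and strand setting are not given in the sources used here). The deposited values are raw counts, not normalized, for 63677 genes. Groups came from the sample labels. The members and lists were chosen with earlier results of these data known.

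The 17092 genes that reached 10 counts in 3 or more of the samples, all 10 members among them, were scaled by TMM and fitted to all 12 samples in 1 model without a replicate block, in edgeR 4.0.16 (quasi-likelihood test) in R 4.3.3. SE was the absolute log2 fold change over the square root of F. CPM used TMM-scaled library sizes, and CPM per kb the Ensembl canonical transcript of GENCODE v44lift37. "Rose" and "fell" mean an adjusted p (Benjamini-Hochberg over all genes tested) below 0.01. The study's own rule added an absolute log2 fold change above 1, with DESeq2, here an alternative (1.42.0). The other alternatives were RLE scaling, library totals alone, scaling without mitochondrial genes, other count filters, a replicate block, a GC offset, only the samples compared, other thresholds and each sample left out. Scripts were tested on simulated counts. No libraries of a group agreed within sampling noise (chi-square per gene at least 2.85). At this depth 1 CPM is over 20 counts, and counting intervals cover counting error only.

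Named were all members, other family genes past the test, the 2 largest changes past the test per route list and comparison, and the 3 nearest profiles for the 3 widest-ranging members, of which 1 is not reported here.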

Additional observations from a re-analysis of the deposited data

How the results depend on the processing

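With library totals alone in place of TMM, the log2 fold change had a median over all genes of -0.11 for GO and -0.47 for GO-Rg3-DOX (0.01 and -0.06 with TMM), and the share of calls that were higher went from 44% to 30.6% for GO, 35.7% to 16.7% for GO-Rg3, 45.5% to 22.8% for GO-Rg3-DOX and 54% to 71.2% for GO-Rg3 against GO. After GO, 4 members rose and 1 fell: 1 rose with library totals alone (KLF3, KLF6 and KLF11 lost the call), none rose or fell with a log2 fold change past 1 as well, and leaving out 1 sample gave 3 to 4 higher and 0 to 1 lower. After GO-Rg3-DOX, 1 rose and 8 fell: 2 rose without a count filter and at an adjusted p of 0.05, 4 fell with the fold limit, and leave-one-out gave 1 to 2 higher and 6 to 8 lower. For GO-Rg3 against GO, 0 were higher and 1 lower: 1 was higher with the GC offset, with the replicate block plus GC offset and at an adjusted p of 0.05, and the number lower was 0 with library totals alone, in a fit to the 6 samples and with the fold limit, 2 with the replicate block, 3 with the block plus GC offset and with DESeq2, 4 with the GC offset and 5 at an adjusted p of 0.05, with 1 to 3 for leave-one-out. For GO-Rg3 against untreated both counts stayed at 0 in each setting run, although DESeq2 gave KLF4 no adjusted p.

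Deviations of same-numbered samples correlated at a mean of 0.0914 (lowest -0.0239, highest 0.253) over 18 pairs. Over other pairs the mean was -0.0451 (lowest -0.257, highest 0.212). The labels do not say whether same-numbered samples belong together, and these values do not settle it. The replicate block took the calls over all genes from 4713 to 5791 for GO, 28 to 84 for GO-Rg3, 9564 to 10094 for GO-Rg3-DOX and 2321 to 3371 for GO-Rg3 against GO, and among members it added KLF2 (-0.80, adjusted p = 0.00793) to the calls for GO-Rg3 against GO.

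Signs turned only for values that had not passed the test. After GO, KLF4 was at -0.04 with the GC offset, -0.08 with the block plus GC offset and -0.27 to 0.38 in leave-one-out fits (-0.17 among them), KLF5 at -0.10 with library totals, -0.01 without a filter and -0.04 to 0.11 in leave-one-out fits (-0.01 and -0.02 among them), and KLF13 at -0.02 with library totals and -0.12 and -0.13 with the GC offset without and with the block. After GO-Rg3, leave-one-out fits gave KLF10 -0.02 to 0.05 (-0.01 among them) and KLF13 -0.01 to 0.09. For GO-Rg3 against GO, KLF4 was at -0.04 to 0.62 in leave-one-out fits (-0.03 among them), KLF5 at 0.04 with library totals and KLF13 at 0.09 with library totals and 0.16 and 0.17 with the GC offset without and with the block. Of the 632 member values under the alternatives, 571 kept direction and side of the threshold, 23 lost the call, 16 gained it and 22 turned sign. Counted as kept was KLF4 with DESeq2 for GO-Rg3 against untreated, which had no adjusted p. Of the 668 values of the other named genes, 586 were so kept and 82 lost the call. The causes were not tested. KLF2 and KLF4 have no value under the filter of 10 counts in every sample, which removed them, and depth limits both, at 2 to 79 counts a sample.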

Other observations

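KLF1, the erythroid factor, was not tested, with 0 counts in the 9 samples without doxorubicin and 3, 2 and 5 counts after GO-Rg3-DOX. KLF8, KLF14 and KLF17 held at most 4 counts in any sample, as did SP7 and SP9.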
